A study of Homo sapiens with 12 samples.

Results

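The APOBEC3 cytidine deaminases are 7 genes in a row on human chromosome 22, APOBEC3A, APOBEC3B, APOBEC3C, APOBEC3D, APOBEC3F, APOBEC3G and APOBEC3H. They were taken by gene name from the deposited table, and make up 7 of its 58735 genes. The family was taken whole, but it was selected when the fall of interferon-stimulated genes against control was already known in these libraries, so every comparison of a member with control is given as a description without a test.

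To examine how factors from MMP28-overexpressing pancreatic cancer cells act on macrophages, RNA was sequenced from THP-1 cells, a human acute monocytic leukemia line, that had been differentiated with PMA and cocultured in a Transwell with AsPC-1 cells, a human pancreatic cancer line. In the control group the AsPC-1 cells carried an empty vector, and in the OE-MMP28 group they overexpressed MMP28, a matrix metalloproteinase, from a lentiviral vector. In the anti-IL-8 and anti-VEGFA groups, the OE-MMP28 coculture also received a neutralising antibody to IL-8 or to VEGFA. Each of the 4 groups held 3 libraries, with total counts from 15852346 to 18701195 and mitochondrial shares from 6.92% to 17.8%. No group carries the name of a control antibody, and only 1 macrophage line and 1 cancer line were used. The overexpressed gene sits in the AsPC-1 cells, which were not the cells sequenced in these libraries. The labels do not say whether the 3 libraries of a group came from separate cultures, so p-values measure the spread between these libraries, which may be technical.

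APOBEC3 enzymes turn cytosine into uracil in single-stranded DNA. They hinder retroviruses and endogenous retroelements by mutating the DNA copy as it is made, and in monocytes and macrophages several of them are induced by type I interferon. Each enzyme has one or a pair of zinc-binding deaminase domains, and APOBEC3A and APOBEC3B can also mutate nuclear DNA.

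The family was carried by APOBEC3G, APOBEC3C and APOBEC3F, and all 3 lay below every control library in each of the OE-MMP28 cocultures, with or without antibody. Summed over the 7 genes, the level was 56.8 ± 5.26 CPM (counts divided by the TMM-scaled library total and set to a common size, mean ± SD, n = 3) in control and 30.4 ± 2.16 CPM in OE-MMP28. With anti-IL-8 the sum was 30.8 ± 2.06 CPM and with anti-VEGFA 24.1 ± 1.16 CPM. These sums are 53.5%, 54.2% and 42.4% of the control level, in that order. In RNA from whole cultures, fewer cells that express a gene and less of its RNA per cell cannot be told apart.

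**Figure D1:**
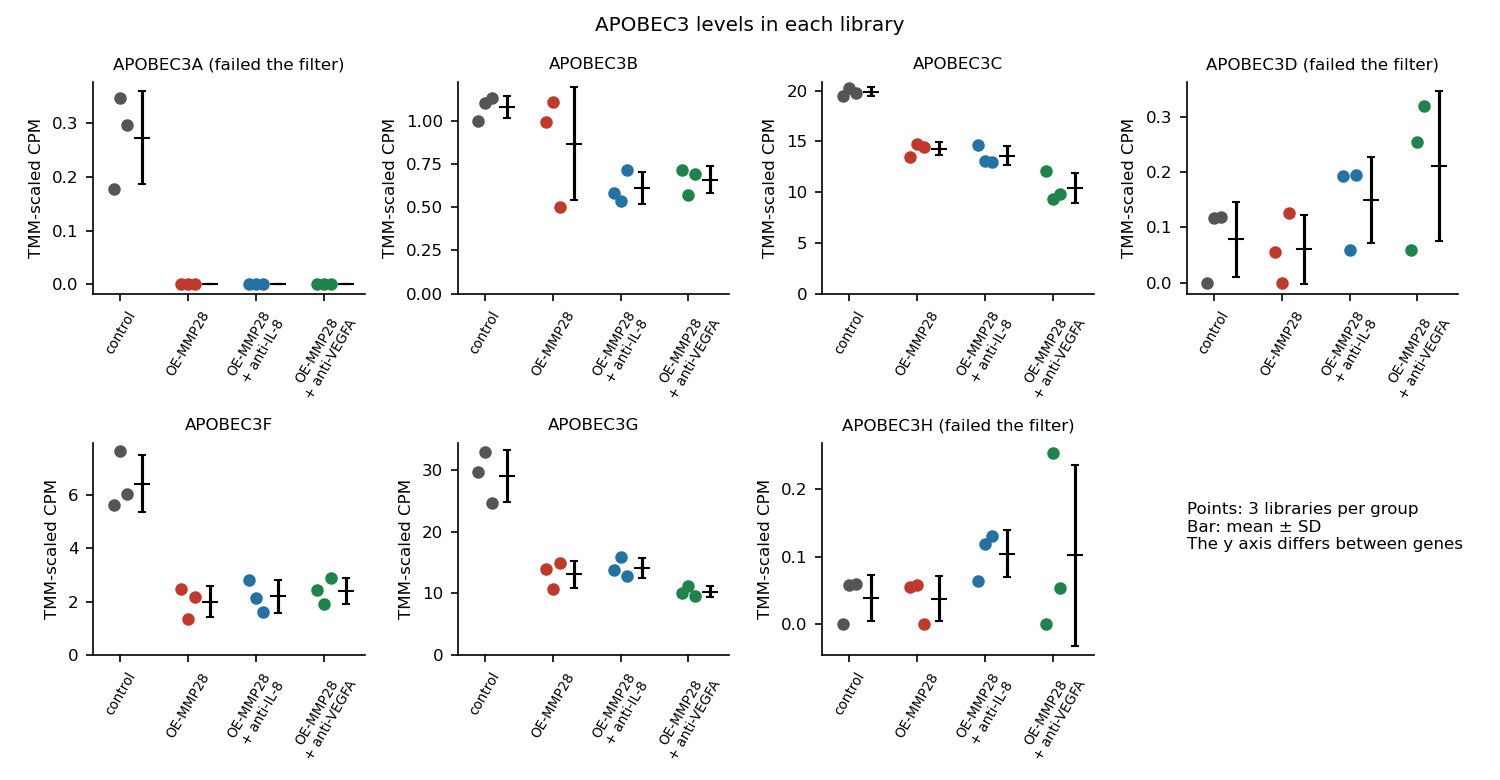
TMM-scaled CPM of each APOBEC3 gene in the 12 libraries by group, with the mean ± SD of 3 libraries as a bar beside the points and a y axis of its own per gene. APOBEC3C, APOBEC3F and APOBEC3G sit highest in the 3 control libraries, APOBEC3A has no counts outside control, and APOBEC3D and APOBEC3H do not exceed 0.320 CPM in any library.

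APOBEC3G, the enzyme that HIV-1 Vif targets for degradation and that is packaged into virions in the absence of Vif, had the most counts of the family in control. Its level was 29.6, 32.9 and 24.6 CPM in the control libraries and 13.9, 10.7 and 14.9 CPM in OE-MMP28. With anti-IL-8 it was 13.8, 15.9 and 12.8 CPM, and with anti-VEGFA 10.1, 11.2 and 9.55 CPM. Every control library was above every library of the 3 OE-MMP28 cocultures. The log2 fold change against control was -1.14 (SE 0.16) in OE-MMP28, -1.03 (SE 0.16) under anti-IL-8 and -1.49 (SE 0.16) under anti-VEGFA, from the edgeR fit of all 12 libraries. In the OE-MMP28 group the mean was 2.21-fold lower than in control.

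APOBEC3F, a relative of APOBEC3G with a pair of deaminase domains that also acts on retroviruses lacking Vif, showed the largest difference between OE-MMP28 and control among the 4 members that could be fitted. It reached 5.60, 7.62 and 6.04 CPM in control, from 95, 132 and 102 counts. In OE-MMP28 it was at 2.47, 1.34 and 2.18 CPM, from 45, 23 and 35 counts. The groups did not overlap, and the mean was 3.21-fold lower in OE-MMP28 than in control. With anti-IL-8 the libraries held 2.83, 2.14 and 1.62 CPM and with anti-VEGFA 2.44, 1.90 and 2.88 CPM, which overlaps the OE-MMP28 range in both cases. The log2 fold changes against control were -1.62 (SE 0.26) in OE-MMP28, -1.5 (SE 0.26) with anti-IL-8 and -1.37 (SE 0.25) with anti-VEGFA.

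APOBEC3C, an enzyme with a single deaminase domain and weak activity on HIV-1, lay within a narrow range in control. It was at 19.5, 20.3 and 19.8 CPM in control and 13.5, 14.8 and 14.5 CPM in OE-MMP28. With anti-IL-8 the values were 14.7, 13.1 and 13 CPM, and with anti-VEGFA 12.1, 9.33 and 9.87 CPM. The control libraries were highest, the OE-MMP28 and anti-IL-8 libraries overlapped, and the anti-VEGFA libraries were lowest. Against control, the log2 fold change was -0.47 (SE 0.14) in OE-MMP28, -0.54 (SE 0.14) with anti-IL-8 and -0.92 (SE 0.14) with anti-VEGFA, a smaller difference than for APOBEC3G or APOBEC3F in each group.

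APOBEC3B, a mostly nuclear enzyme linked to mutation in several cancers, was scarce. Control libraries held 17, 19 and 19 counts (1.00, 1.10 and 1.13 CPM). OE-MMP28 libraries held 18, 19 and 8 counts (0.99, 1.11 and 0.499 CPM), so a pair of them lay at the control level and the third did not. With anti-IL-8 there were 9, 9 and 11 counts and with anti-VEGFA 12, 9 and 13 counts, all below the control libraries once scaled. The log2 fold change of OE-MMP28 against control was -0.27 (SE 0.33), and it was -0.02 without OE-MMP28 replicate 3. With anti-IL-8 it was -0.72 (SE 0.34) and with anti-VEGFA -0.61 (SE 0.33).

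The other 3 members had too few counts for the filter and were not fitted. APOBEC3A, which interferon induces strongly in monocytes, had 3, 6 and 5 counts in the control libraries and 0 counts in each of the other 9. A library with 3 counts of a gene stands at 0.160 to 0.189 CPM when divided by the library total. The floor that a count of 0 allows was set at 3 counts over a group, and the 14 control counts were taken as exact. On these terms APOBEC3A would be at least 4.82-fold lower in OE-MMP28, at least 4.60-fold lower with anti-IL-8 and at least 4.80-fold lower with anti-VEGFA. These bounds cover the counting error of the 0 counts only, and that of the control counts would lower them. APOBEC3D, with a pair of deaminase domains, had 25 counts in all, 4 of them in control and at most 6 in a library. APOBEC3H, with a single domain, had 14 counts in all, 2 of them in control and at most 4 in a library. Neither low gene had its highest library in control, but no direction can be read at this depth.

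Of the 4 members that passed the filter, 3 had all OE-MMP28 libraries below every control library, where 11.6% of the 16046 tested genes did. For anti-IL-8 this held for 4 of 4 members and 24.4% of tested genes, and for anti-VEGFA it held for 4 of 4 members and 17.4% of tested genes. The 3 comparisons share the control libraries, and the family was selected on this contrast, so these counts are not evidence of their own. The median log2 fold change of the 4 members was -0.80 in OE-MMP28, -0.87 under anti-IL-8 and -1.14 under anti-VEGFA against control, beside medians over all tested genes of 0.022, -0.019 and 0.001.

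**Figure D2:**
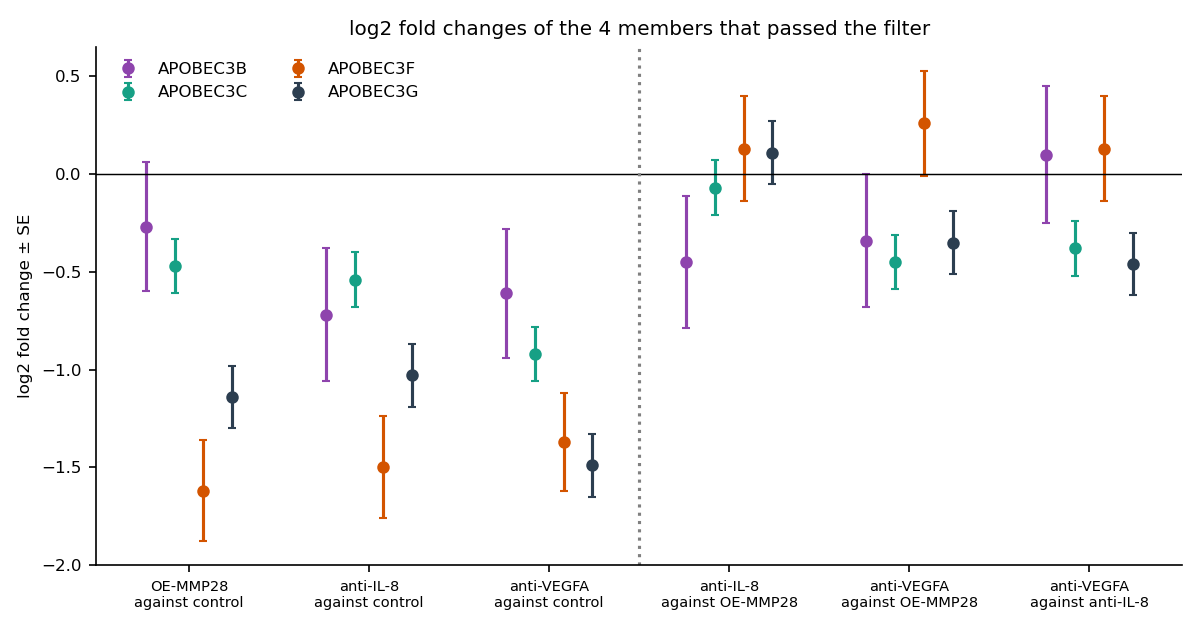
Log2 fold change with its SE for APOBEC3B, APOBEC3C, APOBEC3F and APOBEC3G in 6 comparisons (edgeR fit of 12 libraries), with the 3 comparisons against control left of the dotted line. APOBEC3F and APOBEC3G lie below -1 in each comparison with control, and among the antibody comparisons on the right the values run from -0.46 to 0.26.

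The next question was whether neutralising IL-8 or VEGFA changed the level of any member in the OE-MMP28 coculture. No member passed the adjusted threshold between anti-IL-8 and OE-MMP28 (quasi-likelihood test of edgeR, p-values adjusted by Benjamini-Hochberg over 16046 genes). The count of members called was 0 of 4, also with DESeq2 and with limma voom, and 0 of 4 had an unadjusted p under 0.05. Among all tested genes edgeR called 0% lower and 0% higher, and 29.3% had an unadjusted p under 0.05 in edgeR. APOBEC3G differed by 0.11 on the log2 scale (95% interval -0.23 to 0.44, adjusted p = 0.68), and APOBEC3C by -0.07 (-0.36 to 0.22, adjusted p = 0.76). For APOBEC3F the difference was 0.13 (-0.45 to 0.70, adjusted p = 0.79) and for APOBEC3B -0.45 (-1.17 to 0.27, adjusted p = 0.39). The intervals of APOBEC3F and APOBEC3G end below the size of their differences between control and OE-MMP28, whereas that of APOBEC3B is wider than that gene's difference from control.

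The anti-VEGFA libraries held less APOBEC3C and APOBEC3G on average than the OE-MMP28 libraries, but neither gene passed the adjusted threshold. APOBEC3C was 14.3 CPM in OE-MMP28 and 10.4 CPM with anti-VEGFA on average, a log2 difference of -0.45 (SE 0.14, 95% interval -0.74 to -0.15, unadjusted p = 0.0049, adjusted p = 0.12 in edgeR). All 3 anti-VEGFA libraries were below the 3 OE-MMP28 libraries, but the share of all tested genes that did so was not counted. APOBEC3G was 13.1 and 10.3 CPM, a log2 difference of -0.35 (SE 0.16, -0.69 to -0.01, unadjusted p = 0.043, adjusted p = 0.25 in edgeR), and its groups overlapped through OE-MMP28 replicate 2. APOBEC3F (0.26, -0.31 to 0.82, adjusted p = 0.63) and APOBEC3B (-0.34, -1.05 to 0.36, adjusted p = 0.60) did not pass either. Thus 0 of 4 members were called, with edgeR, DESeq2 or limma voom, where edgeR called 0.0312% of tested genes lower and 0.312% higher. At an unadjusted p under 0.05, 2 of 4 members and 18.8% of tested genes passed. The library with the highest mitochondrial share, 17.8%, was anti-VEGFA replicate 2, which also had the lowest APOBEC3C, and without it the differences from OE-MMP28 were -0.37 for APOBEC3C and -0.41 for APOBEC3G. Without any one library, the APOBEC3C difference ran from -0.57 to -0.37 and that of APOBEC3G from -0.48 to -0.26.

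The antibodies were also compared with each other. With anti-VEGFA, APOBEC3C was lower than with anti-IL-8 by a log2 difference of -0.38 (-0.67 to -0.08, unadjusted p = 0.015, adjusted p = 0.24 in edgeR), and APOBEC3G by -0.46 (-0.80 to -0.12, unadjusted p = 0.011, adjusted p = 0.21 in edgeR). For both genes all anti-VEGFA libraries were below all anti-IL-8 libraries. The share of all tested genes with such a separation was not counted, so it is a description only. APOBEC3F differed by 0.13 (-0.44 to 0.70, adjusted p = 0.84) and APOBEC3B by 0.10 (-0.63 to 0.83, adjusted p = 0.91). No member passed the adjusted threshold, with edgeR, DESeq2 or limma voom, while edgeR called 0.00623% of tested genes lower and 0.193% higher. At an unadjusted p under 0.05, 2 of 4 members passed, and 15.0% of tested genes did.

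The makeup of the family differed between control and OE-MMP28. APOBEC3G gave 47.3% to 53.0% of APOBEC3 counts in the control libraries and 38.2% to 46.1% in OE-MMP28, while APOBEC3C gave 32.6% to 38% in control and 43.7% to 52.8% in OE-MMP28. In the antibody groups the APOBEC3G share overlapped that of control and spanned 42.9% to 49.9% (anti-IL-8) and, in the anti-VEGFA libraries, 39.7% to 47.6%. The APOBEC3C share stayed above the control libraries there, at 41.2% to 45.7% and 39.7% to 47.7%. The ratio of APOBEC3G to APOBEC3C counts was 1.46 ± 0.191 in control, 0.921 ± 0.171 in OE-MMP28, 1.04 ± 0.145 under anti-IL-8 and 1.00 ± 0.186 under anti-VEGFA (mean ± SD, n = 3). The lowest control library had a ratio of 1.25 and the highest of the others 1.21. APOBEC3F gave 10.0% to 12.2% of the counts in control and 4.80% to 7.99% in OE-MMP28, but 12.3% in anti-VEGFA replicate 3. Together, APOBEC3C, APOBEC3F and APOBEC3G held 96.0% to 97.4% of the APOBEC3 counts of a group.

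**Figure D3:**
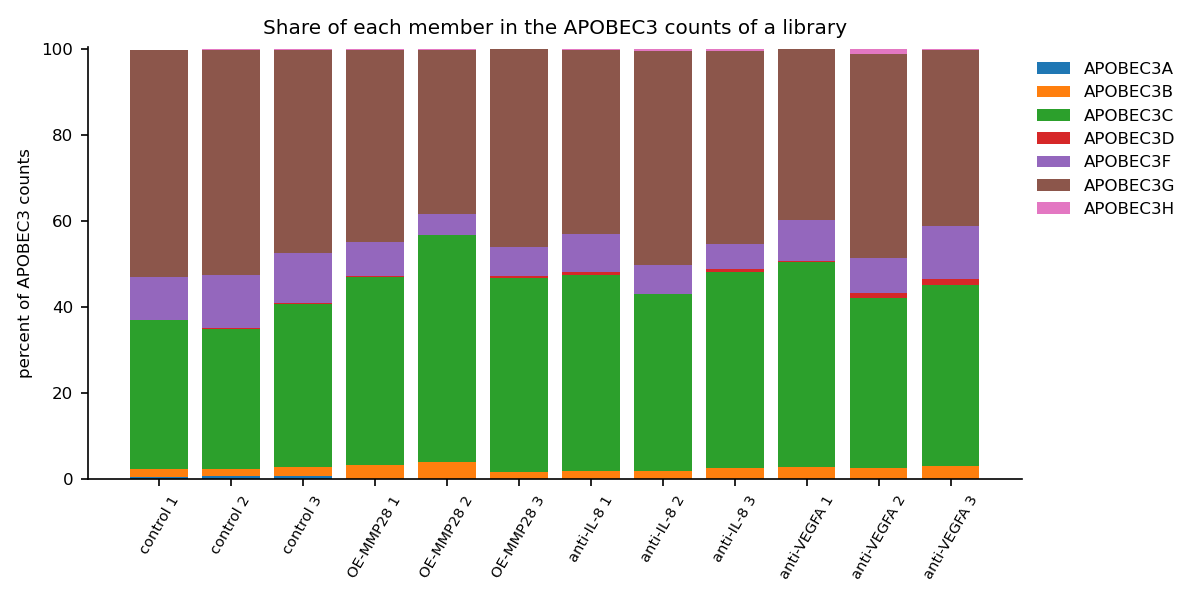
Percent of the APOBEC3 counts of each of the 12 libraries that fell to each of the 7 genes, as stacked bars. The APOBEC3G segment is larger than the APOBEC3C segment in all 3 control libraries (47.3% to 53.0%), and the APOBEC3C segment is larger in each OE-MMP28 library (43.7% to 52.8%) than in any control library.

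Which member stood highest per length depended on the length used. In FPKM, which divide by all 5437 exon bases of APOBEC3G and all 2818 of APOBEC3C, APOBEC3C led in control with 6.96 ± 0.156 FPKM against 5.27 ± 0.775 FPKM for APOBEC3G, and the libraries of the genes did not overlap. Then came APOBEC3F with 1.96 ± 0.326 FPKM and APOBEC3B with 0.560 ± 0.0309 FPKM, followed by APOBEC3A with 0.114 ± 0.0363 FPKM. APOBEC3H at 0.0307 ± 0.0266 FPKM and APOBEC3D at 0.0304 ± 0.0263 FPKM could not be separated. In OE-MMP28 the order of the fitted members was the same, with 5.01 ± 0.225 FPKM for APOBEC3C, 2.39 ± 0.393 for APOBEC3G, 0.610 ± 0.179 for APOBEC3F and 0.452 ± 0.169 for APOBEC3B, and the last pair overlapped between libraries. The longest protein-coding transcript of APOBEC3G in GENCODE 29 has only 1834 bases, whereas that of APOBEC3C has all 2818. Per kilobase of that transcript, APOBEC3G was first in control with 15.8 ± 2.26 CPM against 7.05 ± 0.156 CPM for APOBEC3C. The log2 ratio of APOBEC3G to APOBEC3C per length is thus 1.17 in control and 0.50 in OE-MMP28 on the transcript length, with the opposite sign on FPKM. Fold changes between groups do not depend on this choice.

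**Figure D4:**
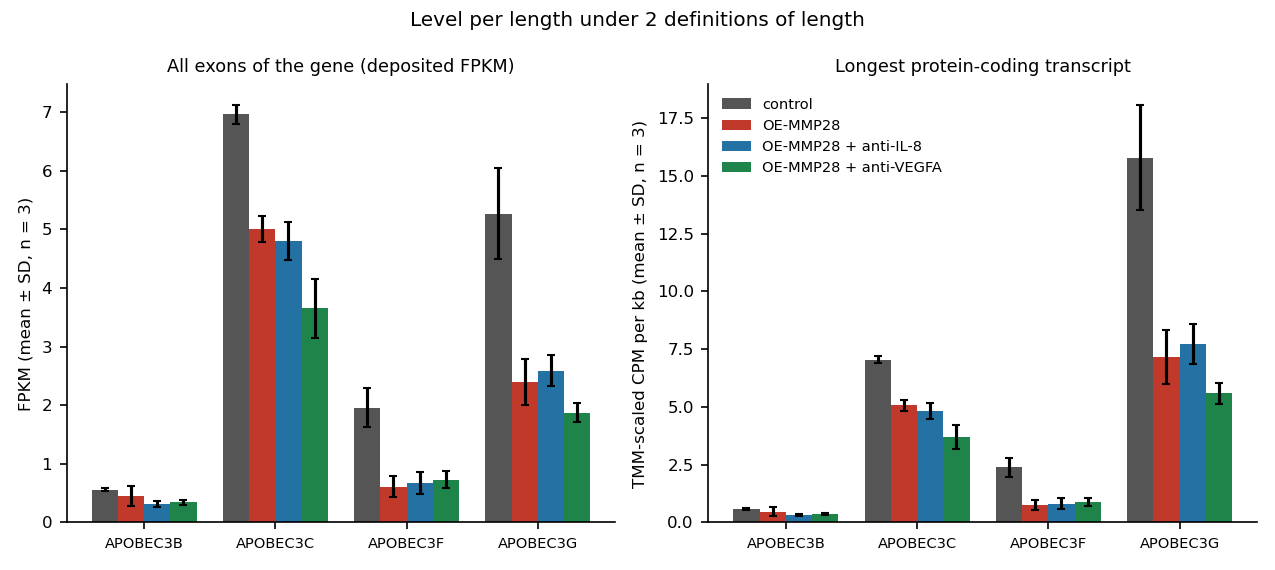
Level per length (mean ± SD, n = 3) of the 4 members that passed the filter, in FPKM over all exons of the gene on the left and in TMM-scaled CPM per kilobase of the longest protein-coding transcript on the right. APOBEC3C is the tallest in every group on the left (6.96 FPKM in control), and APOBEC3G on the right (15.8 CPM per kilobase in control).

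The APOBEC3 genes arose by duplication and share sequence, and some overlap in the annotation, which bears on what their counts can hold. APOBEC3A (ENSG00000128383, chr22:38952741-38992778, + strand) is annotated across APOBEC3B (ENSG00000179750, chr22:38982347-38992804). Of its exon bases, 14.8% lie in an exon of another gene, and of those of APOBEC3B 23.3% do. The antisense gene APOBEC3B-AS1, which overlaps both, had 0 counts in all 12 libraries. APOBEC3D (ENSG00000243811, chr22:39021113-39033276) is the extreme case, since 83.2% of its exon bases also belong to AL022318.4, a gene model on the same strand. All 2121 exon bases of AL022318.4 lie in APOBEC3D (2104) or APOBEC3C (17), and it had 0 counts in all 12 libraries. Since AL022318.4 had 0 counts, none of the 25 counts of APOBEC3D was also counted for it. They fell on unshared bases or were given to APOBEC3D alone. How the counting treated a read that lies in a pair of genes is not given in the sources used here. If such reads were left out, only 424 exon bases of APOBEC3D could collect counts. Per kilobase of these its mean would be 0.184 CPM in control, 0.141 in OE-MMP28, 0.351 under anti-IL-8 and 0.498 under anti-VEGFA. Per kilobase of its own unshared exons, APOBEC3B had 0.739, 0.596, 0.418 and 0.453 CPM in the same order. On this scale APOBEC3D would be below APOBEC3B in each group except anti-VEGFA. The low count of APOBEC3D is therefore uncertain as a measure of its RNA.

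APOBEC3C (ENSG00000244509, chr22:39014083-39020352) had 0.603% of its exon bases in another gene, and APOBEC3F (ENSG00000128394, chr22:39040604-39053910), APOBEC3G (ENSG00000239713, chr22:39077005-39087743) and APOBEC3H (ENSG00000100298, chr22:39097224-39104067) had none. When every stretch of 100 bases of the longest coding transcript was looked up in all other GENCODE 29 genes, 0% were found again for APOBEC3C and APOBEC3H. The share was 11.3% for APOBEC3G and 13.5% for APOBEC3F, mostly in each other, with 196 windows in common. It was 29.4% for APOBEC3B, 12.7% for APOBEC3A and 84.4% for APOBEC3D. Thus most of these transcripts of APOBEC3C, APOBEC3F and APOBEC3G can place a read of 100 bases in a single gene. A part of the reads of APOBEC3F and APOBEC3G could be split between them. With windows of 50 bases the share was 24.2% for APOBEC3F and 19.1% for APOBEC3G, and the read length is not given in the sources used here. For APOBEC3G the transcript looked up has 1834 bases, beside 5437 exon bases of the gene, and the other bases were not examined.

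**Figure D5:**
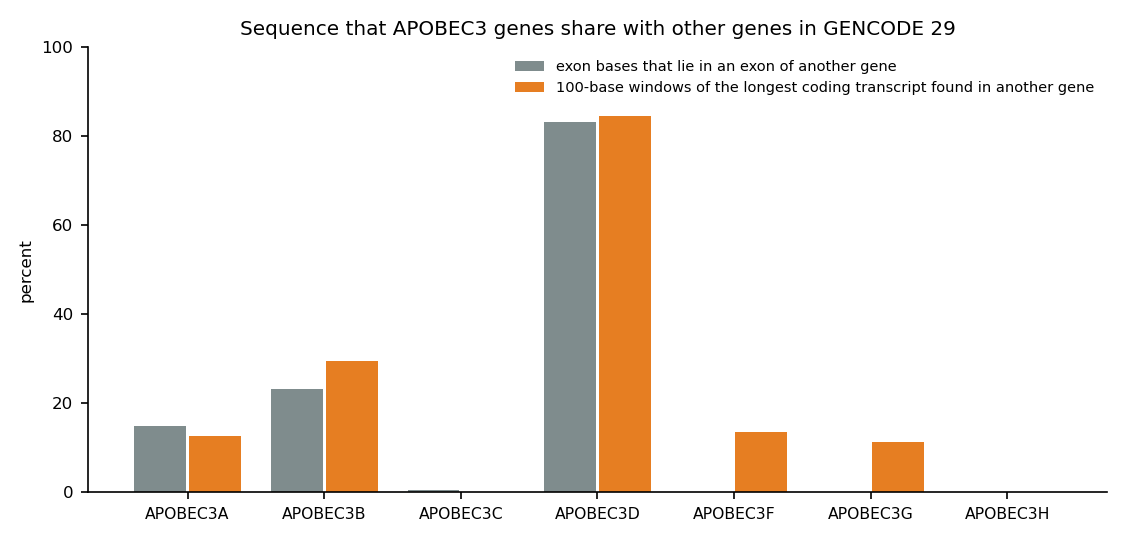
For each APOBEC3 gene, the percent of exon bases that lie in an exon of another gene and the percent of 100-base windows of its longest coding transcript found in another gene of GENCODE 29. APOBEC3D stands at 83.2% and 84.4%, while APOBEC3C stays under 1% on both.

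Outside the cluster, no flanking gene on chromosome 22 passed the adjusted threshold in OE-MMP28 against control or in either antibody group against OE-MMP28. Of SUN2, DNAL4, NPTXR, CBX6, CBX7, PDGFB, RPL3 and SYNGR1, 0 of 8 passed the adjusted threshold in OE-MMP28 against control, also with 0 of 8 at an unadjusted p under 0.05 (edgeR), where 2.64% of all tested genes were called lower, 0.523% higher, and 14.5% had an unadjusted p under 0.05. Their median log2 fold change was -0.07. The largest differences were 0.28 (SE 0.33) for PDGFB, -0.27 (SE 0.13) for CBX6 and -0.21 (SE 0.15) for SYNGR1. Between anti-IL-8 and OE-MMP28, 6 of 8 had an unadjusted p under 0.05 (edgeR), beside 29.3% of all tested genes, and their median was 0.42. Between anti-VEGFA and OE-MMP28, 0 of 8 did, beside 18.8%, with a median of 0.16.

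Several other factors that hinder retroviruses and retroelements were lower as well. Of 17 listed genes 14 were tested, and 8 were lower and 0 higher in OE-MMP28 than in control by the adjusted threshold (2.64% and 0.523% of all tested genes), with a median log2 fold change of -0.72. The largest were TRIM22, an inhibitor of HIV transcription (-3.44, SE 0.21), MX2, a dynamin-like blocker of nuclear import of HIV-1 (-3.41, SE 0.20), and GBP5, a guanylate-binding protein (-2.46, SE 0.17). These 3 log2 differences exceed those of every fitted APOBEC3 gene. This list and that of the interferon route were written with the fall of interferon-stimulated genes in this contrast known, so their counts and values are a description and no independent evidence of direction.

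In the route from the type I interferon receptor, the transcription factor subunits STAT2 and IRF9 were lower in OE-MMP28 than in control, by log2 differences of -1.41 (SE 0.14) and -0.89 (SE 0.20). The receptor chains and kinases IFNAR1, IFNAR2, JAK1 and TYK2 did not pass. Protein kinase C, which PMA activates, and NF-kB are known to drive APOBEC3B, and of 9 genes of these routes 0 passed in OE-MMP28 against control (1 of 9 at an unadjusted p under 0.05, edgeR, median 0.03), beside 2.64% of all tested genes called lower, 0.523% higher and 14.5% at the unadjusted p. The 3 with the largest differences were NFKB2 (0.52, SE 0.17), PRKCB (-0.26, SE 0.12) and PRKCA (0.18, SE 0.14).

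Uracil that deaminases leave in DNA is removed by base excision repair. Of 12 genes for uracil and abasic site repair 0 passed the adjusted threshold in OE-MMP28 against control (1 of 12 at an unadjusted p under 0.05, edgeR), beside 2.64% of all tested genes called lower, 0.523% higher and 14.5% at the unadjusted p, and their median log2 fold change was 0. The largest differences were those of the glycosylase SMUG1 (-0.35, SE 0.15), the translesion polymerase REV1 (0.30, SE 0.17) and the dUTPase DUT (-0.24, SE 0.16). In both comparisons of an antibody with OE-MMP28, edgeR called 0 genes of the lists examined beside the family. Without the marker lists, 25 genes had an unadjusted p under 0.05 (edgeR) for anti-IL-8, beside 29.3% of all tested genes, and 9 for anti-VEGFA, beside 18.8%. The tested genes of these lists were 12 for repair, 14 restriction factors, 7 of the interferon route, 9 of the PKC and NF-kB routes, 8 flanking genes and 1 other AID/APOBEC gene. DESeq2 called 8 list genes for anti-IL-8 and 1 for anti-VEGFA, without a share over all genes beside them.

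The genes whose pattern over the 12 libraries was most like that of APOBEC3G were TRIM21, MYD88 and APOL1, with root-mean-square differences of 0.159, 0.193 and 0.194 in log2 CPM after centring each gene on its own mean. Those most like APOBEC3F were CDHR5, NDRG2 and STAT2, at 0.274, 0.274 and 0.281. They were picked from 12679 protein-coding genes and are a description.

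Most listed markers of macrophages were present, with 8 of 10 past the filter. Their summed level was 1740 to 1990 CPM in control, 1880 to 3090 in OE-MMP28, 2540 to 3200 with anti-IL-8 and 2490 to 2690 with anti-VEGFA. CD68 and MRC1 failed the filter, with at most 5 and 4 counts in a library. Whether either gene overlaps others was not examined, so these counts cannot be read as a lack of their RNA. CD163 and CD86 were low, with means of 3.64 and 1.05 CPM in control, where CD14 had 752 and ITGAM 557 CPM. Of the 8 tested, CD14 alone passed the adjusted threshold in OE-MMP28 against control, where it was higher. Of 8 epithelial markers that AsPC-1 cells would bring, 1 passed the filter, MUC1, which was lower in OE-MMP28 than in control (-0.96, SE 0.24, adjusted p = 0.034 in edgeR). EPCAM had 0 counts in all 12 libraries. The 8 had a summed level of 3.83 to 4.91 CPM in control, 1.92 to 2.46 in OE-MMP28, 2.31 to 3.93 with anti-IL-8 and 3.31 to 4.04 with anti-VEGFA. This sum was lower in every OE-MMP28 library than in any control library, as were APOBEC3C, APOBEC3F and APOBEC3G. It overlapped between OE-MMP28 and anti-IL-8. In both antibody groups the sum also overlapped that of control, whereas these APOBEC3 genes stayed below control there. Most of the sum was MUC1, with a mean of 3.62 CPM in control and 1.80 CPM in OE-MMP28. The part of either marker list in the APOBEC3 levels was not tested.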

How the data were processed

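The authors counted reads per gene, and the deposited counts and FPKM values were used as they stand. The submitters' processing notes name HISAT2 2.0.5 and featureCounts 1.5.0-p3, and the kit for the libraries does not mark strand. The genome build is not given in the sources used here, but start, end and strand of 58724 of 58735 genes equal GENCODE 29 on GRCh38. The deposited FPKM values divide a count by the length of all exons of its gene. Columns with the authors' own comparisons (fold changes with p-values, raw and adjusted) were not used.

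Counts were analysed in R 4.3.3 with edgeR 4.0.16 (filterByExpr, TMM, quasi-likelihood fit of all 12 libraries, prior count of 2, Benjamini-Hochberg, threshold 0.05), which tested 16046 genes. The method was tested on simulated data. DESeq2 1.42.0, limma 3.58.1, other scalings and filters, FPKM with pseudocounts of 1 and 0.1, a replicate block, fits of the 2 groups compared and each library left out were alternatives. Transcripts were read from GENCODE 29 in Python. The length of the longest protein-coding transcript was an alternative chosen after seeing the data. Members and lists were chosen with earlier results of these data known. All members were named, and from each other list up to 3 of the largest differences of OE-MMP28 against control, plus the 3 genes most like each fitted member whose group means ranged over at least 1 on the log2 scale. Libraries of a group differed from each other by more than sampling noise. At these totals 3 counts are the floor, and intervals cover counting error or the spread of libraries only. Some listed genes are not reported here.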

Additional observations from a re-analysis of the deposited data

How the results depend on the processing

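The comparisons of antibodies called 0 members under every other test, scaling, filter and unit and without each library (0 to 0), except at an unadjusted p under 0.05, where 2 passed for anti-VEGFA against OE-MMP28 and 2 for anti-VEGFA against anti-IL-8. The counts below every control library kept their values under library totals and FPKM. With limma on log2(FPKM + 1), whose pseudocount shrinks low genes, the differences from control became -0.88, -0.82 and -0.77 for APOBEC3F in OE-MMP28, anti-IL-8 and anti-VEGFA, and -0.89 in OE-MMP28 and -1.12 in anti-VEGFA for APOBEC3G. Without single libraries, the counts of members below every control library ran from 3 to 4 in OE-MMP28, and stayed at 4 in both antibody groups. Leaving out a library loosens this condition, so apart from rescaling such a count can only stay or rise. This range is therefore no check of it. Genes of the lists other than markers that were called in OE-MMP28 against control numbered 11, and 9 to 11 without single libraries. For anti-IL-8 against OE-MMP28 the count of 0 became 8 with DESeq2, 7 with no filter and 4 with the replicate block. It became 25 at an unadjusted p under 0.05, which 29.3% of all tested genes had, and 0 to 25 without single libraries. The 25 came from leaving out OE-MMP28 replicate 3, and leaving out anti-VEGFA replicate 2 gave 5. For anti-VEGFA against OE-MMP28 the count became 1 with DESeq2 and 9 at an unadjusted p, which 18.8% of all tested genes passed. Without single libraries it ran from 0 to 6 (6 without OE-MMP28 replicate 3). The cause was not tested. The list counts from DESeq2, no filter, the replicate block and single libraries left out have no share over all genes beside them. Whether they are unusual can therefore not be judged. Without single libraries, the log2 difference of anti-IL-8 from OE-MMP28 ran from -0.08 to 0.30 for APOBEC3F (-0.08 without OE-MMP28 replicate 2, -0.06 without anti-IL-8 replicate 1) and from -0.02 to 0.22 for APOBEC3G (-0.02 without OE-MMP28 replicate 2). That of anti-VEGFA from anti-IL-8 ran from -0.04 to 0.32 for APOBEC3F (-0.04 without anti-IL-8 replicate 3, -0.03 without anti-VEGFA replicate 3). Per kilobase of the longest coding transcript, the log2 ratio of APOBEC3G to APOBEC3C became 1.17, 0.50, 0.68 and 0.60 in control, OE-MMP28, anti-IL-8 and anti-VEGFA, reversed from FPKM by the shorter length of APOBEC3G. The deviations of libraries with the same number correlated at -0.16 to 0.237, so no pairing by number was seen. With 3 libraries per group these correlations cannot exclude a pairing. With the replicate block, 0 members were called in each antibody comparison. At the depth of these libraries, APOBEC3A, APOBEC3D and APOBEC3H could not be fitted, and APOBEC3B rests on 8 to 19 counts per library. With at least 10 counts in every library, APOBEC3B was not tested.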
